A study of Mus musculus with 9 samples.

Results

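The proteasome genes described here are the 50 genes whose symbol in the platform annotation begins with Psma, Psmb, Psmc, Psmd, Psme, Psmf or Psmg and a digit, among 19938 genes measured. They were read from 56 probe sets with a single gene symbol, and the probe set with the highest mean over all 9 arrays stood for each gene. Expression was measured on Affymetrix arrays in CD4-enriched T cells from the spleen of C57BL/6J mice, stimulated on beads coated with antibodies to CD3 and CD28 over 72 h. All 3 groups of 3 arrays shared this stimulation. The groups were CD69-/- cells, CD69-activated cells (wild-type cells given anti-CD69 antibody at 24 h, which was cross-linked at 48 h by a second antibody, each diluted 1 in 200) and wild-type cells without these antibodies. The labels give neither the age of the mice nor an isotype or secondary antibody control, and they call the replicates biological without saying whether these were separate mice or cultures. The p-values describe the spread among these arrays. The comparisons ask how loss or engagement of CD69, an early activation receptor of lymphocytes, relates to expression in stimulated CD4 T cells.

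The proteasome degrades proteins marked with ubiquitin. Its barrel-shaped 20S core is built from outer alpha rings and inner beta rings, and 3 of the beta subunits (Psmb5, Psmb6 and Psmb7) carry the proteolytic sites. The 19S cap recognises ubiquitin, unfolds the substrate with a ring of ATPases and removes the ubiquitin chain. In lymphocytes, and in other cells under interferon gamma, newly built cores take up Psmb8, Psmb9 and Psmb10 in place of Psmb5, Psmb6 and Psmb7. This immunoproteasome, often capped by the PA28 activator made of Psme1 and Psme2, favours peptides that bind MHC class I molecules. Dividing T cells also need proteasomes to remove cyclins and cell cycle inhibitors.

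Values are log2 RMA expression values as deposited. A fold change is a difference of log2 means, tested with limma over all genes and called at a Benjamini-Hochberg adjusted p under 0.05. Cd69 had log2 levels of 9.65, 9.49 and 9.63 in CD69-/- arrays, 11.80, 11.84 and 11.74 in CD69-activated arrays and 12.03, 12.12 and 12.37 in wild-type arrays. All CD69-/- arrays lay below all others. The Y-linked gene Eif2s3y averaged 9.78 in CD69-/- arrays, 4.35 in CD69-activated arrays and 4.33 in wild-type arrays, so that genotype and sex coincided and cannot be told apart in the comparisons with CD69-/- cells. The cultures were mixed: markers of T cells and B cells were bright in all groups. In bulk RNA, fewer cells of a type and less RNA per cell cannot be told apart.

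Proteasome genes were among the brighter genes of the arrays. Their mean levels had a median of 10.58 and ran up to 13.03 for Psmb3, and 40 of the 50 lay in the brightest 25% of all genes, which began at 9.67. The dimmest were Psma8 at 5.49 and Psmb11 at 6.93, subunits otherwise known from testis and from the thymic cortex. They lay at the 13.1 and 36.3 percentiles of all genes. Replicates lay close together, with median SDs over the 50 genes of 0.042 in CD69-/-, 0.056 in CD69-activated and 0.046 in wild-type arrays (n = 3 each). Of the 50 genes, Psmc3ip, a partner of meiotic recombinases, and Psme3ip1, which binds Psme3, match by symbol and are not subunits. Psma3, Psma5, Psmb3, Psmc1 and Psmd2 had more than 1 probe set, which pointed the same way in every comparison. Whether the probe sets of these or other members also detect near-identical copies of the gene was not tested, and their values are uncertain in that respect.

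**Figure D1:**
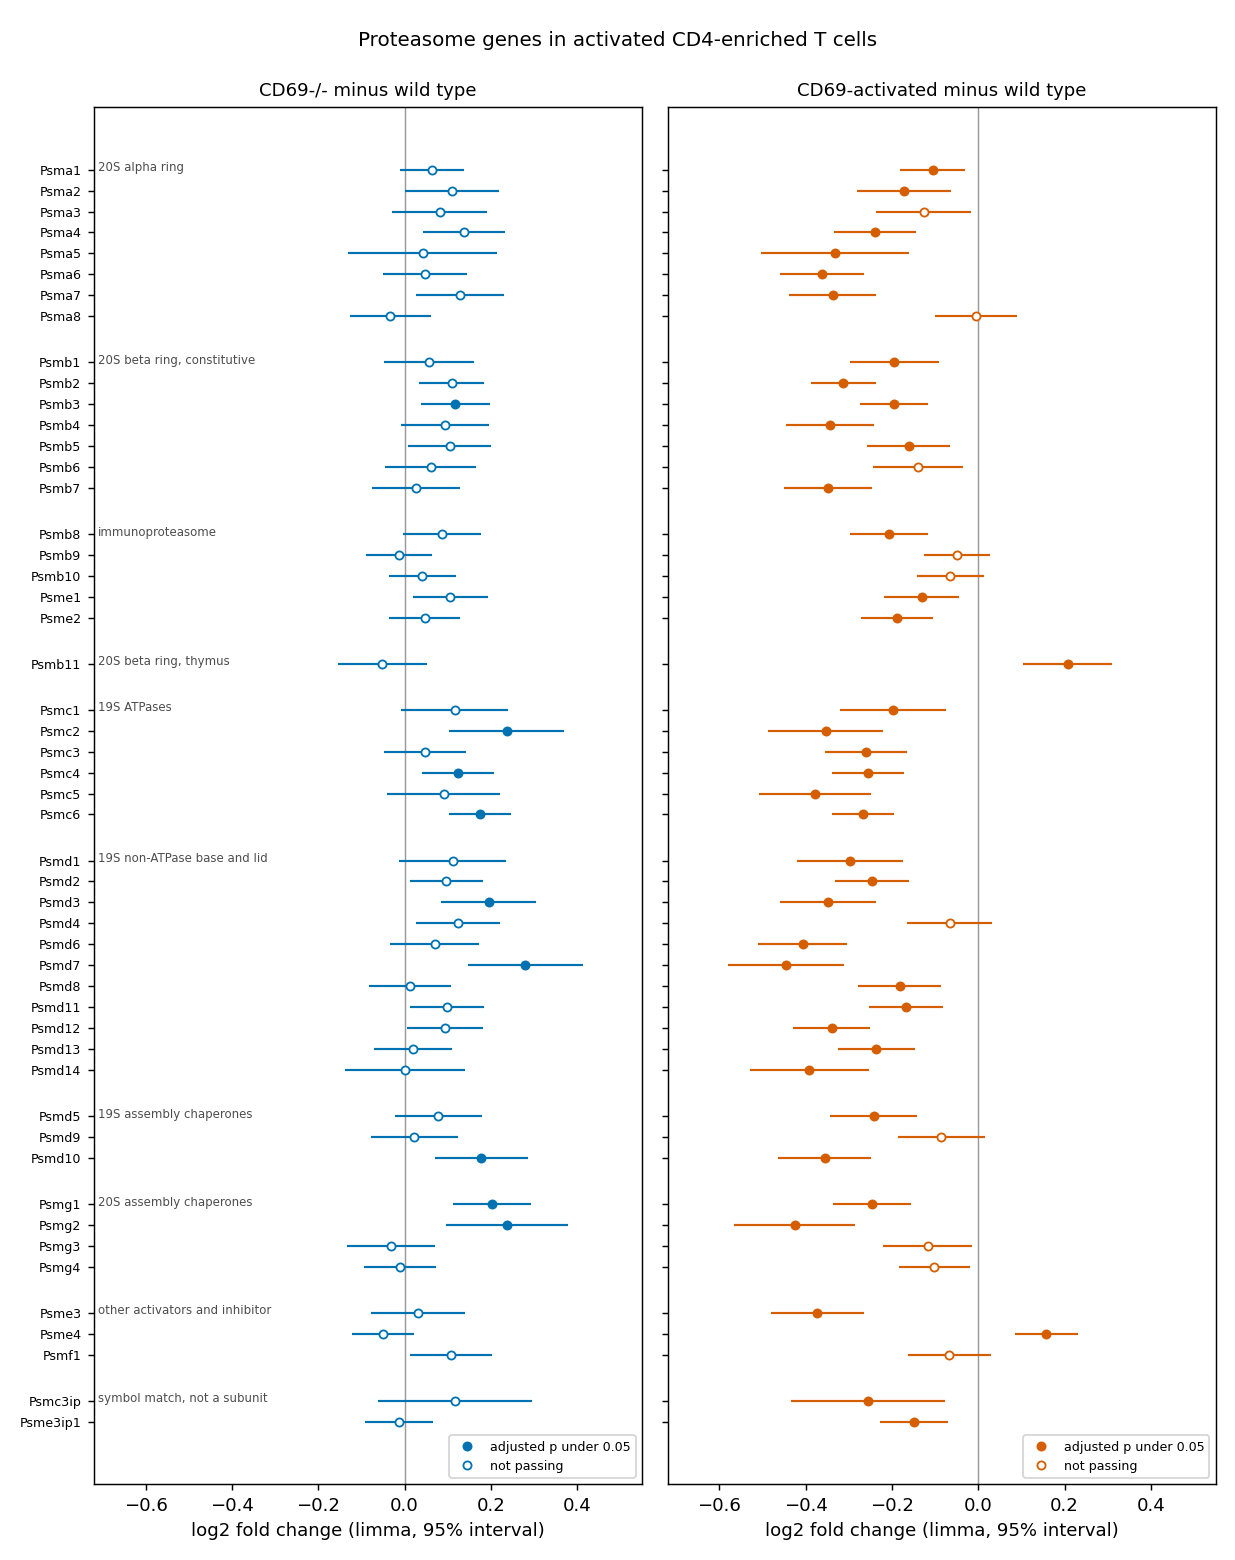
Log2 fold changes (x axis) of the 50 proteasome genes (y axis, by role) for CD69-/- minus wild type (left) and CD69-activated minus wild type (right), with 95% intervals from limma and filled points for an adjusted p under 0.05. On the right 38 genes were called lower and 2 higher, and on the left 9 were called higher and 0 lower.

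CD69 activation went with small decreases across most of the proteasome genes, relative to wild-type cells. Of the 50 genes 38 fell, 2 rose and 10 did not pass (limma, adjusted p under 0.05). Over all genes 13.7% were called lower and 10.1% higher. The median log2 fold change of the 50 was -0.24, a 1.18-fold lower level, against a median of 0.017 over all genes. The largest fall was 1.36-fold, that of Psmd7, so no member reached 1.5-fold. All 3 CD69-activated arrays lay below all 3 wild-type arrays for 43 of the 50 genes, which held for 17.9% of all genes, and above them for 2, against 18.1%. Because the members are bright, the counts of called genes are also given within the brightest 25% of genes. Groups without overlap were not counted there in any comparison. Within these bright genes 32 of 40 members were called lower, against 27.3% of the 4985 genes, and 1 was called higher, against 13.6%. The median of these 40 members was -0.22, and that of the 4985 genes was -0.037. With arrays centred on their medians, which moved the median of all genes to -0.065, 47 members were called lower and 0 higher, and over all genes 4741 were called lower and 764 higher, against 2727 and 2015 without centring. Under that scaling Psma3, Psmb6, Psmb9, Psmb10, Psmd4, Psmd9, Psmf1, Psmg3 and Psmg4, which did not pass otherwise, passed as lower, and Psmb11 and Psme4 lost their calls as higher.

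**Figure D2:**
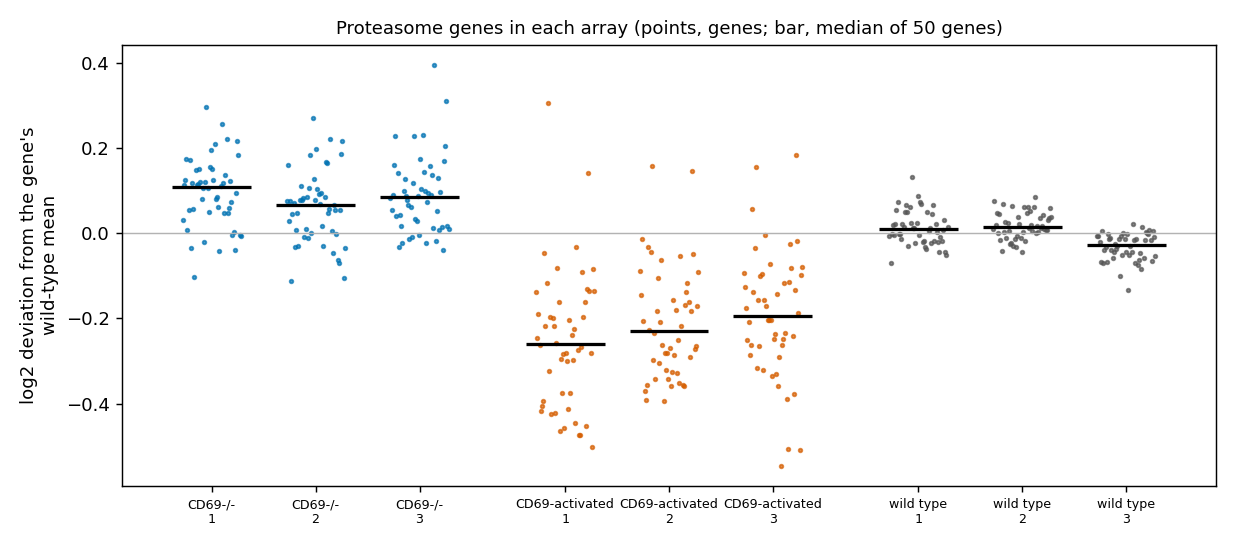
Deviation of each proteasome gene from its mean over the wild-type arrays (y axis, log2) in each of the 9 arrays (x axis), 1 point per gene, with the median of the 50 genes as a bar. The medians were 0.11, 0.067 and 0.086 in CD69-/- arrays, -0.26, -0.23 and -0.20 in CD69-activated arrays and 0.010, 0.014 and -0.028 in wild-type arrays.

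The shift was present in each CD69-activated array. In these arrays 48, 48 and 47 of the 50 genes lay below their wild-type mean, with median deviations of -0.26, -0.23 and -0.20. In the wild-type arrays the medians were 0.010, 0.014 and -0.028, so the smallest shift of an activated array was larger than the spread between wild-type arrays. The wild-type arrays form the mean from which they deviate, which holds their medians near 0. This comparison is therefore a description and no test.

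**Figure D3:**
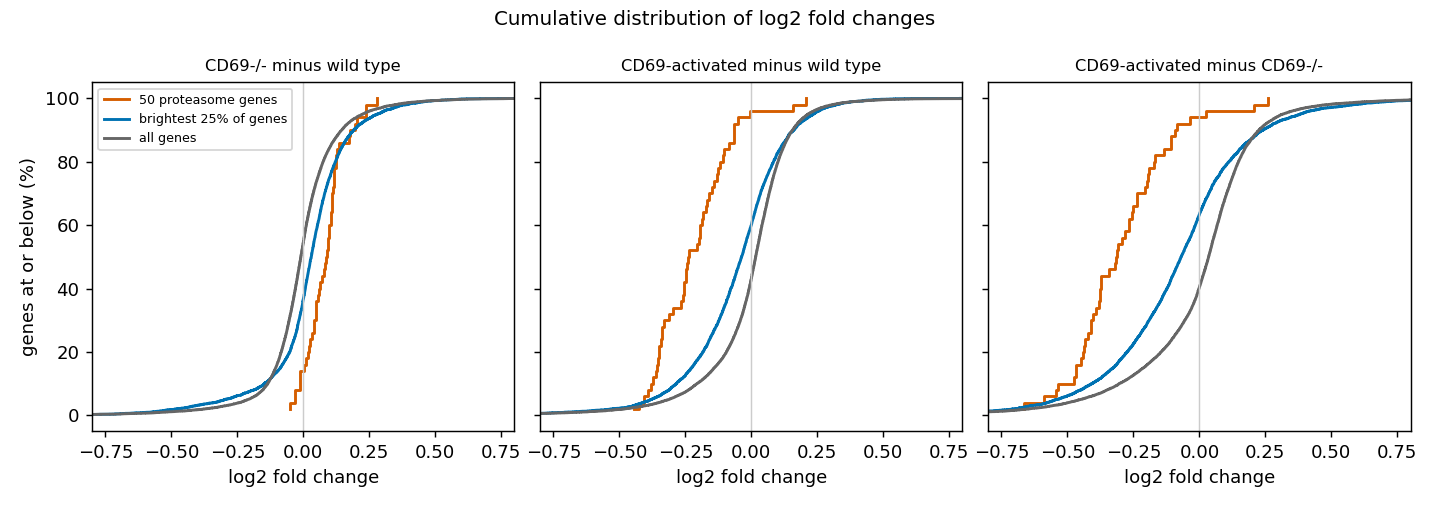
Cumulative distributions (y axis, percent of genes at or below a value) of log2 fold changes (x axis, drawn from -0.8 to 0.8) in the 3 comparisons, for the 50 proteasome genes, the brightest 25% of genes and all genes. In CD69-activated minus wild type the medians were -0.24, -0.037 and 0.017 for these sets, and in CD69-/- minus wild type they were 0.088, 0.030 and -0.0091.

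In the 20S core, 6 of 8 alpha ring genes and 6 of 7 constitutive beta ring genes fell after CD69 activation. Psma6 had log2 levels of 11.23, 11.24 and 11.35 in CD69-activated arrays and 11.65, 11.68 and 11.56 in wild-type arrays, and fell 1.28-fold (log2 fold change -0.36, SE 0.044, adjusted p = 0.000175 in limma, n = 3 per group). Psma7 fell by 0.34 and Psma5 by 0.33 on the log2 scale, and the second probe set of Psma5 was also at -0.33. The groups did not overlap for any of these alpha ring genes. Psma1 (-0.11, adjusted p = 0.0438 in limma) and Psma2 (-0.17, 0.0274) lay nearer the threshold. Of 15 alternative runs, the call of Psma1 was kept in 6 and that of Psma2 in 10. Psma3 was at -0.13 (adjusted p = 0.0950 in limma), and its other 2 probe sets were at -0.096 and -0.15. Psma3 passed without CD69-activated replicate 2 (adjusted p = 0.0112) and with arrays centred on their medians (0.00812). The testis form Psma8 was at -0.0060, with a 95% interval from -0.10 to 0.089.

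Among the constitutive beta subunits, Psmb7, which carries the trypsin-like site, had 9.86, 9.97 and 9.96 in CD69-activated arrays and 10.25, 10.34 and 10.24 in wild-type arrays. Its fall was 1.27-fold (log2 fold change -0.35, SE 0.046, adjusted p = 0.000305 in limma). The structural subunits Psmb4 and Psmb2 fell by 0.34 and 0.31. Psmb5, with the chymotrypsin-like site, had 12.44, 12.46 and 12.54 in CD69-activated arrays and 12.71, 12.62 and 12.60 in wild-type arrays. It fell by 0.16 (adjusted p = 0.0208 in limma). That call was lost without wild-type replicate 1 (0.0839), without CD69-activated replicate 1 (0.0632) or 2 (0.0581) and after cyclic loess (0.0637). Psmb6, with the caspase-like site, was at -0.14 (adjusted p = 0.0550), although its groups did not overlap, with 10.60, 10.71 and 10.72 in CD69-activated and 10.87, 10.80 and 10.79 in wild-type arrays. Psmb6 passed with arrays centred on their medians (-0.22, adjusted p = 0.00835), without the dimmest 25% of genes (0.043) and with an intensity trend (0.0297). The thymus form Psmb11, dim on these arrays, was one of the 2 members that rose (0.21, adjusted p = 0.00797), and its call was lost with the arrays centred on their medians (0.0759).

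All 6 ATPases of the 19S cap fell after CD69 activation. Psmc5 fell by 0.38, Psmc2 by 0.35 and Psmc6 by 0.27, with a median of -0.26 over the 6. Psmc6 had 10.09, 10.10 and 10.12 in CD69-activated arrays and 10.37, 10.38 and 10.37 in wild-type arrays (log2 fold change -0.27, SE 0.032, adjusted p = 0.000172 in limma, n = 3 per group). The difference between its groups exceeded the range within either. The call of Psmc1 (-0.20, adjusted p = 0.0247) was lost without wild-type replicate 1 (0.0736) or CD69-activated replicate 2 (0.0828), after cyclic loess (0.0522), with all probe sets tested (0.0504) and with only the arrays compared (0.0674), while its second probe set was at -0.30.

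Among the 50 members were 11 non-ATPase genes of the cap, from its base scaffold and its lid. Of these 10 fell, with a median of -0.30. Psmd7, the lid partner of the deubiquitinase Psmd14, had 9.89, 10.01 and 9.86 in CD69-activated arrays and 10.43, 10.38 and 10.28 in wild-type arrays. It fell 1.36-fold (log2 fold change -0.45, SE 0.061, adjusted p = 0.000355 in limma). The lid gene Psmd6 fell by 0.41 and Psmd14, which cuts ubiquitin chains from substrates, by 0.39. Psmd4, a ubiquitin receptor of the cap, did not pass. It had 10.03, 10.01 and 9.95 in CD69-activated and 10.08, 10.13 and 9.99 in wild-type arrays, overlapping, with a log2 fold change of -0.067 and a 95% interval from -0.16 to 0.031. With arrays centred on their medians it was at -0.15 and passed (adjusted p = 0.0434 in limma).

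Of the core chaperones, Psmg1 and Psmg2 act as one dimer and Psmg3 and Psmg4 as another. Psmg2 had 9.40, 9.64 and 9.39 in CD69-activated arrays and 9.86, 9.94 and 9.91 in wild-type arrays, and fell by 0.43 (SE 0.064, adjusted p = 0.000676 in limma). Its partner Psmg1 fell by 0.25. The other pair, Psmg3 and Psmg4, was at -0.12 and -0.10 and did not pass (adjusted p = 0.0936 and 0.0731). Psmg4 passed without wild-type replicate 3 (0.0443), Psmg3 passed after cyclic loess (0.0122), and with arrays centred on their medians Psmg3 (0.00845) and Psmg4 (0.00822) both passed. Psmd10, a chaperone of the 19S base also called gankyrin and the only X-linked member, fell by 0.36, and Psmd5 fell by 0.24. Psmd9 was at -0.085 (adjusted p = 0.212), and at -0.17 with arrays centred on their medians, where it passed (0.0333).

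Alternative activators went in opposite directions. Psme3, the nuclear PA28 gamma activator, had 11.42, 11.58 and 11.50 in CD69-activated arrays and 11.83, 11.92 and 11.87 in wild-type arrays, and fell 1.30-fold (log2 fold change -0.37, SE 0.049, adjusted p = 0.000284 in limma). Psme4, the large PA200 activator, was higher in every CD69-activated array. It had 10.81, 10.81 and 10.85 there and 10.65, 10.67 and 10.67 in wild-type arrays (log2 fold change 0.16, SE 0.033, adjusted p = 0.00519 in limma). With arrays centred on their medians its adjusted p was 0.182. The inhibitor Psmf1 was at -0.067 (adjusted p = 0.304), and at -0.15 with that centring, where it passed (0.0336). Psmc3ip and Psme3ip1, which are not subunits, fell by 0.26 and 0.15, and the call of Psmc3ip was lost in 5 of the 6 fits that left out an array, with adjusted p-values of 0.0825 to 0.141.

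**Figure D4:**
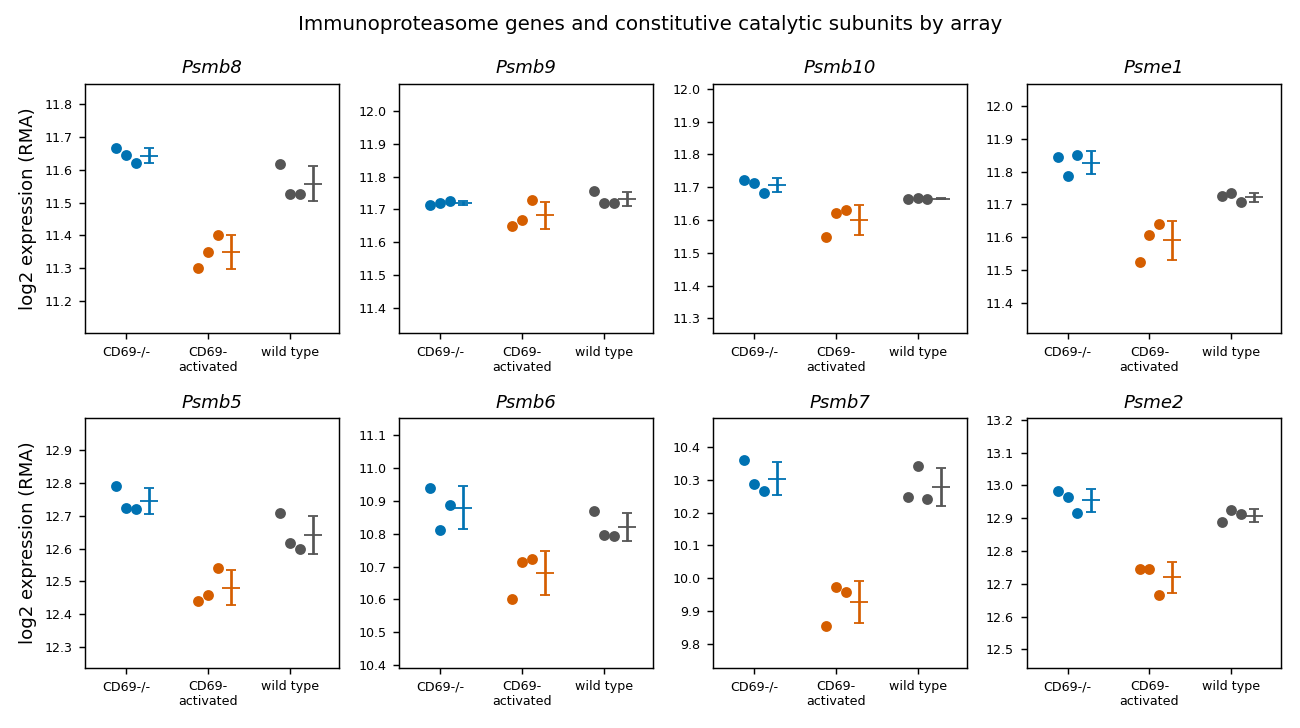
Log2 RMA levels (y axis, each panel spanning the same range) of Psmb8, Psmb9, Psmb10, Psme1 and Psme2 and of the constitutive catalytic subunits Psmb5, Psmb6 and Psmb7 in CD69-/-, CD69-activated and wild-type arrays (x axis), with points for arrays and bars for mean and SD (n = 3). CD69-activated arrays of Psmb9 lie at 11.65 to 11.73 and overlap the wild-type arrays at 11.72 to 11.76, while those of Psmb6, the subunit it replaces, lie at 10.60 to 10.72, below the wild-type arrays at 10.79 to 10.87.

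Psmb8, Psmb9, Psmb10, Psme1 and Psme2 were bright in all groups. After CD69 activation, of the 5 genes 3 fell, none rose and 2 did not pass, with a median of -0.13. The median of the other 45 members was -0.25, and the difference between the sets was not tested. With arrays centred on their medians all 5 fell, with a median of -0.21, and after cyclic loess 2 fell, with a median of -0.095. Psmb8 had 11.30, 11.35 and 11.40 in CD69-activated arrays and 11.62, 11.53 and 11.53 in wild-type arrays. It fell 1.15-fold (log2 fold change -0.21, SE 0.041, adjusted p = 0.00378 in limma). Psme2 had 12.75, 12.75 and 12.67 in CD69-activated arrays and 12.89, 12.92 and 12.91 in wild-type arrays, and fell by 0.19 (SE 0.037, adjusted p = 0.00395). A probe set shared by Psme2 and its near-identical copy Psme2b was not used, and the signal of these near-identical genes may not be separate on the array, so the value of Psme2 is uncertain. Psme1 had 11.52, 11.61 and 11.64 in CD69-activated and 11.72, 11.73 and 11.71 in wild-type arrays, and fell by 0.13 (SE 0.040, adjusted p = 0.0338). The call of Psme1 was lost in 5 of the 6 fits that left out an array (adjusted p from 0.0526 to 0.0979, kept only without CD69-activated replicate 3), after cyclic loess (0.0676), with only the arrays compared (0.061) and with the replicate number as a block (0.0621).

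Psmb9 and Psmb10 did not pass with the values as deposited. Psmb9 had 11.65, 11.67 and 11.73 in CD69-activated arrays and 11.76, 11.72 and 11.72 in wild-type arrays (log2 fold change -0.049, adjusted p = 0.35 in limma, 95% interval from -0.13 to 0.028). The groups overlapped. Psmb10 had 11.55, 11.62 and 11.63 in CD69-activated arrays and 11.66, 11.67 and 11.66 in wild-type arrays (log2 fold change -0.065, adjusted p = 0.223, 95% interval from -0.14 to 0.014). All CD69-activated arrays lay below all wild-type arrays, and their distance was small. With arrays centred on their medians both passed, Psmb9 at -0.13 (adjusted p = 0.0452 in limma) and Psmb10 at -0.15 (0.0243).

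The change of each inducible subunit was set against the constitutive subunit it replaces, as the difference of their log2 levels within each array. Since probe sets differ in brightness, only the change of this difference between groups has a meaning. Psmb10 minus Psmb7 was 1.69, 1.65 and 1.67 in CD69-activated arrays and 1.41, 1.32 and 1.42 in wild-type arrays, a change of 0.28 (SE 0.034) with no overlap. Psmb9 minus Psmb6 was 1.05, 0.95 and 1.00 in CD69-activated arrays and 0.89, 0.92 and 0.93 in wild-type arrays, a change of 0.090 (SE 0.030) with no overlap. Psmb8 minus Psmb5 changed the other way by -0.046 (SE 0.012), with -1.14, -1.11 and -1.14 in CD69-activated arrays and -1.09, -1.09 and -1.07 in wild-type arrays. Each of these had p = 0.1 in a two-sided exact permutation test, the smallest that 3 arrays against 3 allow, and 0.18 after adjustment over the 9 pairs and comparisons computed.

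Sequence upstream of these genes is shown for Psmb5 and Psmb8, a catalytic subunit and its inducible form that both fell, for Psmb9, which did not pass with the values as deposited, and for Psmc6, which was called in all 3 comparisons. The stretches come from RefSeq promoter windows of GRCm38.p6, which run from 250 bases before to 50 bases after a gene's first base, and are written 5′ to 3′ on the gene's strand. Capitals mark TGACNNNGC, a core element of cap'n'collar factors such as Nfe2l1 (in Psmb5 and, on the other strand, in Psmc6), TTCNNNGAA, the gamma-activated site (in Psmb8), and CCAAT on the other strand (in Psmb9).
Psmb5, chr14:54617996-54618080, minus strand: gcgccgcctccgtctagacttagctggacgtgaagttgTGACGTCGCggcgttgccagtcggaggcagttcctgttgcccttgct
Psmb8, chr17:34198060-34198144, plus strand: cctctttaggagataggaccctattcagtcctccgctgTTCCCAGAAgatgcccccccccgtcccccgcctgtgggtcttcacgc
Psmb9, chr17:34187331-34187376, minus strand: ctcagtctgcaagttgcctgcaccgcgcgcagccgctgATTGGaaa
Psmc6, chr14:45329575-45329627, plus strand: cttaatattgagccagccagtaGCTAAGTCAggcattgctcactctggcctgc

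Windows were found for 42 of the 50 genes. TGACNNNGC stood on either strand in 6 of these 42 (14.3%), namely Psmb5, Psmb6, Psmc6, Psmd9, Psmd12 and Psme4, against 12.4% of all 32851 windows. TTCNNNGAA stood in 3 (7.14%; Psmb8, Psmd2 and Psmg1) against 8.30% of all windows. The interferon-stimulated element, searched as GAAA, any 2 bases and GAAA, stood in 5 (11.9%; Psmb3, Psmd4, Psmd9, Psme1 and Psmg4) against 3.44%, and CCAAT in 16 (38.1%) against 37.4%. Matches describe letters in these windows and show no binding. In the same annotation Psmb9 and Psmb8 lie on chromosome 17 on either side of Tap1, which encodes a chain of the peptide transporter. Tap1 had 12.65, 12.70 and 12.71 in CD69-activated and 12.65, 12.65 and 12.65 in wild-type arrays (log2 fold change 0.040, adjusted p = 0.435 in limma).

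In CD69-/- cells 9 of the 50 proteasome genes rose relative to wild-type cells, 0 fell and 41 did not pass (limma, adjusted p under 0.05). Over all genes 8.36% were called higher and 6.78% lower, and within the brightest 25% of genes 15.0% were called higher against 7 of 40 members, and 10.3% were called lower against 0 of 40, so the share of members called higher was near that of bright genes. At an unadjusted p under 0.05 in limma, 20 members were higher and 0 lower. The share of all genes at that threshold was not computed, so this count has no background beside it. The median of the 50 was 0.088 (0.094 for the 40 bright members), against -0.0091 over all genes and 0.030 over the brightest 25%. All CD69-/- arrays lay above all wild-type arrays for 26 genes, which held for 17.3% of all genes, and below them for 2, against 15.9%.

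The 9 genes were Psmd7 (0.28), Psmg2 (0.24), Psmc2 (0.24), Psmg1 (0.20), Psmd3 (0.19), Psmd10 (0.18), Psmc6 (0.17), Psmc4 (0.12) and Psmb3 (0.12). Psmd7 had 10.59, 10.59 and 10.76 in CD69-/- arrays and 10.43, 10.38 and 10.28 in wild-type arrays, so that CD69-/- cells were 1.21-fold higher (SE of the log2 difference 0.061, adjusted p = 0.00902 in limma, n = 3 per group). Psmc6 had 10.52, 10.57 and 10.55 in CD69-/- arrays and 10.37, 10.38 and 10.37 in wild-type arrays (SE 0.032, adjusted p = 0.00348). Psmg1 had 9.79, 9.76 and 9.78 in CD69-/- arrays and 9.60, 9.60 and 9.51 in wild-type arrays (SE 0.041, adjusted p = 0.00612). These 3 genes passed in every alternative run. The other 6 each lost their call without at least 1 array: 5, 3 and 3 members were called higher without wild-type replicates 1, 2 and 3, and 4, 7 and 4 without CD69-/- replicates 1, 2 and 3. With the arrays centred on their medians 17 members were called higher, and over all genes 2462 were called higher and 886 lower, against 1667 and 1351 without centring. When all probe sets were tested 3 members were called higher.

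By role, the calls in CD69-/- cells were 3 of 6 ATPases, 2 of 11 non-ATPase genes of the cap, 1 of 7 constitutive beta subunits, 0 of 8 alpha ring genes, 2 of 4 core chaperones and 1 of 3 cap chaperones. None of the 5 immunoproteasome genes passed with the values as deposited. Psmb9 was at -0.013 (adjusted p = 0.861, 95% interval from -0.090 to 0.064), with 11.71, 11.72 and 11.72 in CD69-/- and 11.76, 11.72 and 11.72 in wild-type arrays. Psme1, with 11.84, 11.79 and 11.85 in CD69-/- and 11.72, 11.73 and 11.71 in wild-type arrays, was at 0.11 (adjusted p = 0.107) although the groups did not overlap, and it passed with arrays centred on their medians (0.15, adjusted p = 0.0383) and with an intensity trend (0.0399). Psmb8, Psmb10 and Psme2 were at 0.086, 0.041 and 0.046. Psmd10, which lies on the X chromosome, rose in CD69-/- arrays, the group with a Y-linked signal.

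Set directly against CD69-/- cells, CD69-activated cells had 43 of the 50 genes lower and 2 higher, with 5 not passing. Over all genes 21.0% were called lower and 21.6% higher. Within the brightest 25% of genes 41.0% were called lower, against 37 of 40 members, and 20.1% higher, against 1 of 40. The median of the members was -0.31 against 0.035 over all genes. All CD69-activated arrays lay below all CD69-/- arrays for 44 of the 50 genes, which held for 24.2% of all genes, and above them for 2, against 27.3%. With arrays centred on their medians, which moved the median of all genes to -0.092, 47 members were called lower and 1 higher, and over all genes 7990 were called lower and 1354 higher, against 4187 and 4314 without centring. This comparison shares its arrays with the others and adds no independent evidence to them. All 31 constitutive subunits of core and cap among the 50 genes were lower. They are the alpha and beta rings without the testis, thymus and inducible forms, the ATPases and the non-ATPase genes. Sem1, a cap subunit outside the symbol rule, had means of 9.17 in CD69-activated and 9.38 in CD69-/- arrays. It is counted below with the genes that load, assemble or regulate proteasomes. The falls of Psmd7, Psmg2 and Psmc2 exceeded 1.5-fold. Psmd7 was 1.65-fold lower (-0.73 on the log2 scale, SE 0.061, adjusted p = 4.29e-06 in limma), with 9.89, 10.01 and 9.86 in CD69-activated and 10.59, 10.59 and 10.76 in CD69-/- arrays. Psmg2 was 1.58-fold and Psmc2 1.51-fold lower.

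In that comparison 4 of the 5 immunoproteasome genes were lower, with a median of -0.23. All 5 were lower with arrays centred on their medians, with a median of -0.36, and 3 after cyclic loess. Psmb8 fell by 0.29, Psme1 by 0.24 and Psme2 by 0.23. Psmb10 fell by 0.11 (adjusted p = 0.0328), and its call was lost without CD69-/- replicate 1 (0.0922) or 2 (0.0814), without CD69-activated replicate 1 (0.0917), after cyclic loess (0.262), with only the arrays compared (0.0594) and with the replicate number as a block (0.0639). Psmb9 was at -0.037 (adjusted p = 0.417, 95% interval from -0.11 to 0.041), and passed with arrays centred on their medians (0.00901). Psmb11 and Psme4 were the 2 members that rose, by 0.26 and 0.21, and the call of Psme4 was lost with arrays centred on their medians (0.12). Psmb10 minus Psmb7 was 1.69, 1.65 and 1.67 in CD69-activated and 1.36, 1.43 and 1.42 in CD69-/- arrays, a change of 0.27 (SE 0.024). Psmb9 minus Psmb6 changed by 0.16 (SE 0.048), and Psmb8 minus Psmb5 by -0.028 (SE 0.017) with overlapping groups. In the exact permutation test p was 0.1, 0.1 and 0.2 for these pairs, and 0.18, 0.18 and 0.26 after adjustment.

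Of 19 measured genes that load, assemble or regulate proteasomes 6 fell, 3 rose and 10 did not pass after CD69 activation, with a median of -0.086. These shares stand beside 13.7% lower and 10.1% higher over all genes, and 27.3% and 13.6% within the brightest 25% of genes. The share that rose was near both, and the share that fell was near that of the brightest 25%. Uchl5, a deubiquitinase of the cap, fell by 0.41 (adjusted p = 5.9e-05 in limma) with 8.86, 8.89 and 8.95 in CD69-activated and 9.31, 9.36 and 9.25 in wild-type arrays. Pomp, the maturation chaperone of the core, fell by 0.40 (adjusted p = 0.000327). Txnl1, a redox protein of the cap, fell by 0.29 and Zfand2a by 0.24. Ube3c was the highest of the 19 after activation at 0.17, and Akirin2 was at 0.12 (adjusted p = 0.0422 in limma). Nfe2l1, the factor that raises proteasome genes when proteasomes are short, was at 0.17 (adjusted p = 0.0356) in CD69-/- cells and at -0.095 (adjusted p = 0.188) after activation, with 10.99, 10.96 and 10.90 in CD69-/-, 10.63, 10.66 and 10.76 in CD69-activated and 10.83, 10.81 and 10.71 in wild-type arrays. Nfe2l2, of the same gene family, had means of 11.42 in CD69-activated and 11.26 in wild-type arrays, and these groups overlapped.

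Of 10 measured genes of class I antigen presentation 4 fell and 1 rose after CD69 activation, with the same shares over all and bright genes beside them, and the 1 that rose was near the 10.1% over all genes. Pdia3, a chaperone of the peptide loading complex, fell by 0.38, and the class I transactivator Nlrc5 rose by 0.18 (adjusted p = 0.00259 in limma). Nlrc5 had 19 probe sets, of which only the brightest was read here. B2m, the class I light chain, was at -0.013 (adjusted p = 0.838). In CD69-/- cells 3 of the 10 rose and 0 fell, where 8.36% of all genes and 15.0% of the brightest 25% rose. These 3 were Tapbpl at 0.23, Nlrc5 at 0.14 (adjusted p = 0.0176 in limma) and Erap1 at 0.14.

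Ifng, the cytokine that raises the inducible subunits, had a log2 level of 12.07, 12.06 and 12.22 in CD69-/- arrays, 9.11, 9.10 and 9.10 in CD69-activated arrays and 11.67, 11.68 and 11.66 in wild-type arrays. It rose by 0.45 in CD69-/- cells and fell by 2.57 after CD69 activation on the log2 scale. Irf1, an interferon-induced factor, was at 0.055 (adjusted p = 0.305) and Ifngr1, a receptor chain, at 0.023 (adjusted p = 0.712) after activation. Socs1, a feedback inhibitor of this pathway, fell by 0.38. Of the 9 measured genes of the axis 2 fell after CD69 activation, namely Ifng and Socs1, and none rose. The share that fell lay between the 13.7% over all genes and the 27.3% of the brightest 25%. In CD69-/- cells 1 of the 9 rose, Ifng, and 1 fell, Irf8 (-0.23, adjusted p = 0.0012 in limma). Both shares were near those of all genes (8.36% higher and 6.78% lower) or of the brightest 25% (15.0% and 10.3%).

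Mean levels of markers differed from wild type mainly in CD69-/- arrays for B cells and for monocytes, macrophages and dendritic cells. The mean of NK cell markers differed mainly in CD69-activated arrays. The mean log2 level of 14 B cell markers ran from 11.34 to 11.43 in CD69-/- arrays, 11.84 to 11.91 in CD69-activated arrays and 11.92 to 11.96 in wild-type arrays, and all 14 fell in CD69-/- cells. In CD69-activated arrays 3 of the 14 fell and 2 rose. After CD69 activation 13.7% of all genes fell and 10.1% rose, and 27.3% and 13.6% of the brightest 25%. The shares of B cell markers after activation were near these. In CD69-/- cells 6.78% of all genes fell and 8.36% rose, and 10.3% and 15.0% of the brightest 25%. The mean over 16 markers of monocytes, macrophages and dendritic cells was 8.32 to 8.43 in CD69-/- arrays. It was 8.90 to 8.94 in CD69-activated arrays and 8.90 to 8.95 in wild-type arrays. Of the 16, 13 were lower in CD69-/- cells, and 4 were lower and 4 higher after CD69 activation. Their log2 fold changes after activation ran from -0.78 for Flt3 to 0.85 for Adgre1, so the similar means hide changes both ways. The share that fell after activation lay between those of all genes and of bright genes. The mean over 11 T cell markers was 12.15 to 12.19 in CD69-/- arrays. It was 11.64 to 11.66 in CD69-activated arrays and 11.67 to 11.74 in wild-type arrays. All 11 were higher in CD69-/- cells. After CD69 activation 3 were lower, a share near that of the brightest 25% of genes. Except for Cd4, these markers are shared by CD4 and CD8 T cells, so their change cannot be assigned to either. The mean over 8 NK cell markers was 8.47 to 8.50 in CD69-/- arrays, 7.97 to 8.06 in CD69-activated arrays and 8.55 to 8.60 in wild-type arrays. Of the 8, 3 were higher and 4 lower in CD69-/- cells, and 5 were lower after CD69 activation. The 3 that were higher, Klrd1, Klrk1 and Nkg7, are shared with CD8 T cells, so their change cannot be assigned to NK cells. Cd8a and Cd8b1 were at 0.61 and 0.43 in CD69-/- cells, where Cd4 was at 0.37. After CD69 activation Cd8a and Cd8b1 were at -0.54 and -0.25, and Cd4 was at 0.082. RMA values have no zero, so none of the markers is at 0. The part of these markers in the results on proteasome genes was not tested.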

How the data were processed

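Per the submitters' processing notes, which name RMA, oligo and R 2.12.1, the authors deposited log2 expression values. Further settings were not given in the sources used here. The table holds 35556 probe sets, of which 21789 had 1 gene symbol in the platform annotation, 1621 several and 12146 none. The number of arrays limits the precision.

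One limma 3.58.1 model (R 4.3.3) of 3 group means was fitted to all 9 arrays, with no further scaling, 6 residual degrees of freedom and 4.78 from the prior, and with Benjamini-Hochberg adjustment over 19938 genes. Tests were two-sided. The fit was tested on simulated data. The members, lists, tests and rules for naming genes were chosen with earlier results of these data known. Named genes were the immunoproteasome set, the constitutive catalytic subunits, up to 3 called members of each role with the largest change, up to 4 called genes of each partner list, and members at the ends of a range. Akirin2, B2m, Cd4, Cd8a, Cd8b1, Irf1, Ifngr1, Klrd1, Klrk1, Nfe2l2, Nkg7, Tap1, Psma1, Psma2, Psmc1, Psmd4, Psmd5 and Sem1 were named after their values were seen. The alternatives were cyclic loess, centring arrays on their medians, dropping the dimmest 25% of genes, other uses of probe sets, only the arrays compared, an intensity trend, a replicate block, leaving out X and Y chromosome genes and leaving out each array. Python 3.11.15 with matplotlib 3.10.9 drew the figures. The differences between paired subunits and the counts within the brightest 25% of genes were added after seeing the data.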

Additional observations from a re-analysis of the deposited data

How the results depend on the processing

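The counts of proteasome genes called lower held within 1.5 times under the alternatives run: 33 to 47 for CD69-activated minus wild type (38 as reported) and 42 to 47 for CD69-activated minus CD69-/- (43 as reported), and no called change turned its direction. Centring arrays on their medians moved the median of all genes from 0.035 to -0.092 in CD69-activated minus CD69-/- and that of the members from -0.31 to -0.44, and the median of the members in CD69-/- minus wild type from 0.088 to 0.13. Under it 17 members were called higher in CD69-/- minus wild type (9 as reported), 0 in CD69-activated minus wild type and 1 in CD69-activated minus CD69-/- (2 each as reported). With all probe sets tested, which adjusts over more features, 3 were called higher in CD69-/- minus wild type. Leaving out each array gave 3 to 7 there. A replicate block gave 6 higher in CD69-/- minus wild type, and 36 and 42 lower in the comparisons of CD69-activated with wild-type and CD69-/- cells. Arrays of the same number shared only a number, with correlations of their deviations from -0.24 to 0.14, and 1 of 9 arrays correlated best with its own number. Small falls such as those of Psma1 and Psme1 lay near the threshold, and 3 arrays per group limit what can be called there.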
